A study of Mus musculus with 2 samples.

Results

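R-loops were examined at 10 heat shock and chaperone genes in neural stem and progenitor cells (NSPCs): Hspa1a, Hspa1b, Hspa8, Hsph1, Dnajb1, Hsp90aa1, Hsp90ab1, Hspa5, Hspd1 and Hspe1. The genes were chosen by symbol in the GENCODE M1 annotation of the mouse mm9 genome and make up 10 of its 22367 protein-coding genes. A gene was counted as having a peak when at least 1 bp of a peak lay in the gene or within 2 kb of it. The list of R-loop peaks came from primary C57BL/6 NSPCs grown from frontal brains of mice at postnatal day 7. By the methods of the study, the cells were under mild replication stress from aphidicolin, an inhibitor of DNA polymerases; the sample labels name no treatment. All peaks therefore come from treated cultures, and no untreated NSPC list was analysed here. The mapping used DRIP-seq, in which the S9.6 antibody recovers RNA:DNA hybrids from genomic DNA cut with restriction enzymes and the recovered DNA is sequenced. The deposited list holds 22132 peaks as chromosome, start and end, with no signal, score or read count, and its replicates were combined before deposit. The values below accordingly have no replicate error, the depth behind each peak is unknown, and no test was made.

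An R-loop is a hybrid of RNA with the template strand of DNA that leaves the other strand unpaired. R-loops tend to form behind RNA polymerase where the new RNA is rich in G, and they are known from gene starts and gene ends. Chaperones help other proteins to fold. The cytosolic HSP70 proteins include the stress-induced forms from Hspa1a and Hspa1b and the constitutive form from Hspa8. Hsph1 (HSP110) exchanges the nucleotide on HSP70, and Dnajb1 (HSP40) is a J-domain protein that stimulates its ATPase. Hsp90aa1 and Hsp90ab1 encode the inducible and constitutive HSP90 of the cytosol. Hspa5 (BiP) is the HSP70 of the endoplasmic reticulum (ER), and Hspd1 (HSP60) and Hspe1 (HSP10) form the chaperonin of mitochondria. On heat stress, heat shock factor 1 switches many of these genes on through heat shock elements, inverted repeats of GAA in their promoters.

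As a check of the cell type, peaks were counted at marker genes, although a peak is not a level of expression. Of 10 markers of neural stem and progenitor cells, 8 had a peak, among them Sox2, Nes and Olig2, while Pax6 and Fabp7 had none. Of 12 markers of microglia, endothelium, liver, heart and pancreas, 4 had a peak (Csf1r, Pecam1, Kdr and Apoa1). The share over all protein-coding genes was 43.1%.

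Promoter sequences are shown first, because the regulatory elements of these genes and the peaks could be set against each other base by base. Sequences are from mm9 and read 5′ to 3′ on the coding strand. The first is the upstream region that Hspa1a and Hspa1b share, from 200 to 61 bp before the start of Hspa1a. The same 140 bases occur without a difference at chr17:35096212-35096351, from 168 to 29 bp before the start of Hspa1b. Capitals mark a heat shock element of 2 GAA units facing each other (GAANNTTC).
Hspa1a, chr17:35109130-35109269, minus strand: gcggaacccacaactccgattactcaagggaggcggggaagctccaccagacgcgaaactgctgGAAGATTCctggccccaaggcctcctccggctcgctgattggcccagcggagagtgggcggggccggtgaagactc
The second is the element between the divergent genes Hspe1 and Hspd1, whose annotated limits overlap head to head. Capitals mark its alternating units, which hold the 3-unit element GAANNTTCNNGAA on each strand.
Hspe1, chr1:55144897-55144926, plus strand: ggtccgTTCTAGAACCTTCCGGAAggcccc
The third is the promoter of Hspa5, from 240 to 21 bp before the start of its transcript with the longest coding sequence. Capitals mark CCAAT boxes on either strand and, from the last of them, the ER stress element, CCAAT and CCACG with 9 bases between, through which unfolded proteins in the ER switch Hspa5 on.
Hspa5, chr2:34627372-34627591, plus strand: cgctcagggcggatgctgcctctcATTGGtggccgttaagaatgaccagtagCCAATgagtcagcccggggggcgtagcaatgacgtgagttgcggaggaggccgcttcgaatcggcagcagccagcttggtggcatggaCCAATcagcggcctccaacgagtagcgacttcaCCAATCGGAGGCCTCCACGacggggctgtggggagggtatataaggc

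These 3 sequences differed in their place relative to the peaks. The whole Hspa5 stretch lay inside a peak. The element shared by Hspe1 and Hspd1 lay 202 bp from the nearest peak. The Hspa1a element lay 19617 bp and the Hspa1b element 6699 bp from any peak.

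Motifs were counted in the 300 bp before the start of each gene, on both strands. Measured from the transcript with the longest coding sequence, GAANNTTC was present at 5 of the 10 genes (Hspa1a, Hspa1b, Hspd1, Hspe1 and Hsph1) and in 7.63% of all 22367 promoters. The reverse arrangement TTCNNGAA was present at Hspd1, Hspe1 and Hsph1, and in 7.87% of promoters. The 3-unit element, which contains both, was at the same 3 genes and in 0.492% of promoters. That of Hsph1 lay downstream of the RefSeq starts of the gene, and the 250 bp before those starts held no 3-unit element. With the outermost annotated start instead, GAANNTTC was left at Hspa1a, Hspa1b and Hspe1, and the 3-unit element at Hspe1. None of the heat shock elements found lay in a peak, and the nearest to one was that of Hspe1 and Hspd1. The Hsph1 element was 14563 bp away. No share of such elements in peaks is given over all promoters. The start of the transcript with the longest coding sequence lay in a peak at 15% of all protein-coding genes. These elements are also not independent, since Hspa1a and Hspa1b are near copies and Hspd1 and Hspe1 share the same bases. CCAAT was present at 8 genes and in 38.6% of promoters, and TATAAA at none of the genes and in 14.5%. The CCAAT boxes of Hspa5, Hspa8 and Hsp90ab1 lay in peaks, as did the starts of these genes. The ER stress element was present at Hspa5 and in 0.116% of promoters, 26 in all. A match of letters is a description of the sequence, not evidence of a bound factor.

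Peaks were found at 8 of the 10 genes, and Hspa1a and Hspa1b had none. Among all protein-coding genes, 43.1% had a peak by the same rule. Length matters to such a count, since a longer gene offers more room, and the 10 genes were short, with a median of 4389.5 bp against 15427 bp. Of the 6 members under 5 kb, 4 had a peak, where the share of all genes of that length was 19.6%. All 4 members of 5 to 25 kb had one, against 44.4%. Within the gene limits alone, 7 members had a peak and 39.6% of protein-coding genes did. The member lost is Hspe1, whose only peak lay 275 bp upstream of its start. That peak lay inside Hspd1 and was counted for both genes.

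**Figure D1:**
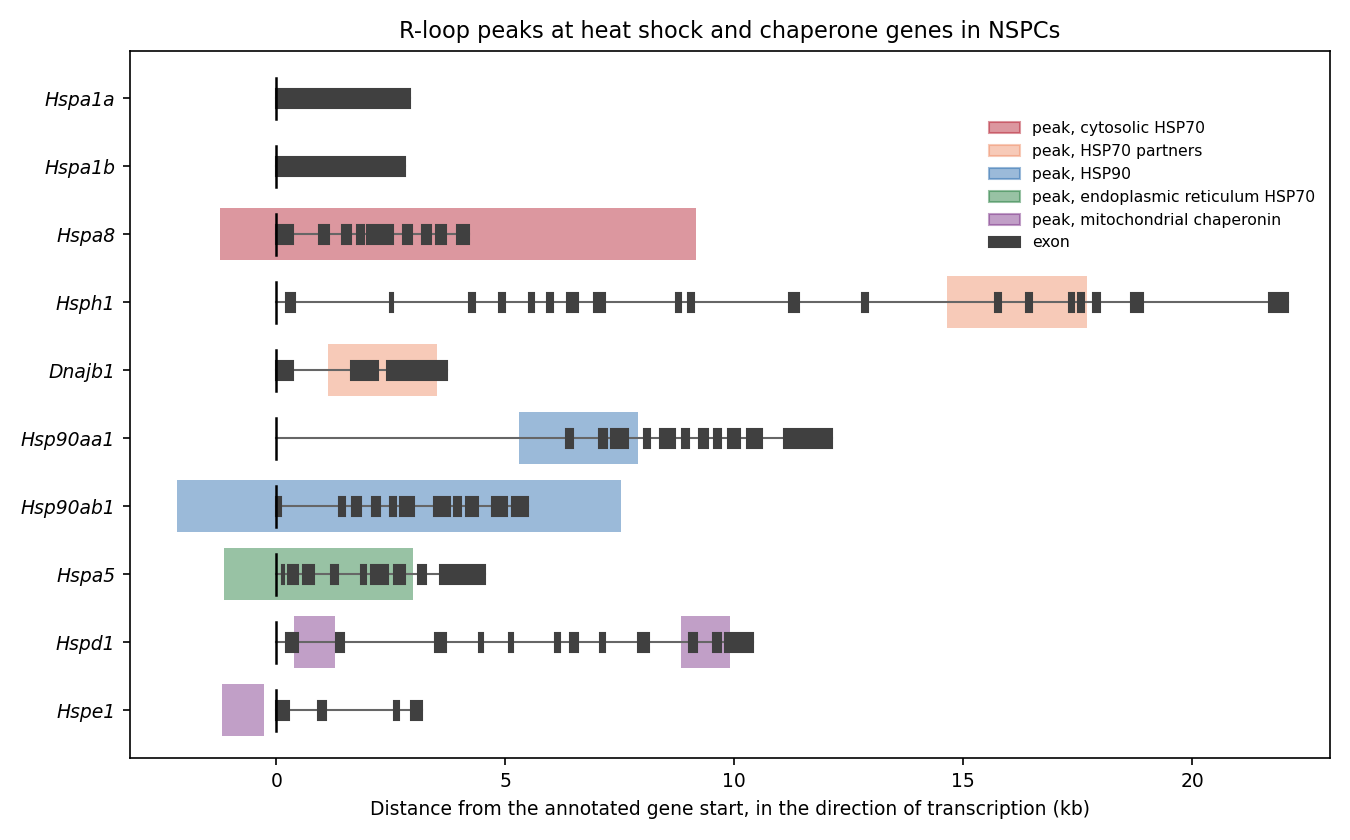
Each row is 1 of the 10 genes drawn from its annotated start (black tick) in the direction of transcription, with distance in kb on the horizontal axis. Dark boxes are exons of the transcript with the longest coding sequence, and coloured boxes are R-loop peaks. Hspa8 and Hsp90ab1 lie wholly inside 1 peak each, the peak in front of Hspe1 is the same as the first peak of Hspd1, and Hspa1a and Hspa1b have no peak within 2 kb.

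The 8 distinct peaks at these genes had a median width of 2835 bp, against 1322 bp for all peaks. Hspa8 had the widest, 10.4 kb, followed by Hsp90ab1 with 9.68 kb, Hspa5 with 4.13 kb, Hsph1 with 3.06 kb, Hsp90aa1 with 2.61 kb, Dnajb1 with 2.38 kb and Hspd1 with 1.08 and 0.901 kb. The first 2 stood above 98.3% and 97.9% of all peaks in width. The widths otherwise spanned the ordinary range of the list, down to the narrower Hspd1 peak, which was wider than 38.2% of peaks.

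The start of the gene lay in a peak at Hspa8, Hsp90ab1 and Hspa5, 3 members of 10, against 14.9% of protein-coding genes. Measured at the start of the transcript with the longest coding sequence, Hsp90aa1 joined them, which made 4 members against 15%. The start of any annotated transcript gave the same 4, against 19.4%. The gene end lay in a peak at Hspa8 and Hsp90ab1, 2 members, against 10.9%. The same 2 members were covered from end to end, against 1.81%, and Hspa5 and Dnajb1 also had at least 50% of their length in peaks, 4 members against 6.36%. The median share of gene length in peaks was 20.3% over the 10 members and 0% over all protein-coding genes. With only genes that had a peak inside their limits, the medians were 63.8% for 7 members and 10.4%. These shares of length are set against genes of all lengths, while the members are short. A peak of a given width fills more of a short gene, and no length-matched share of cover is given.

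**Figure D2:**
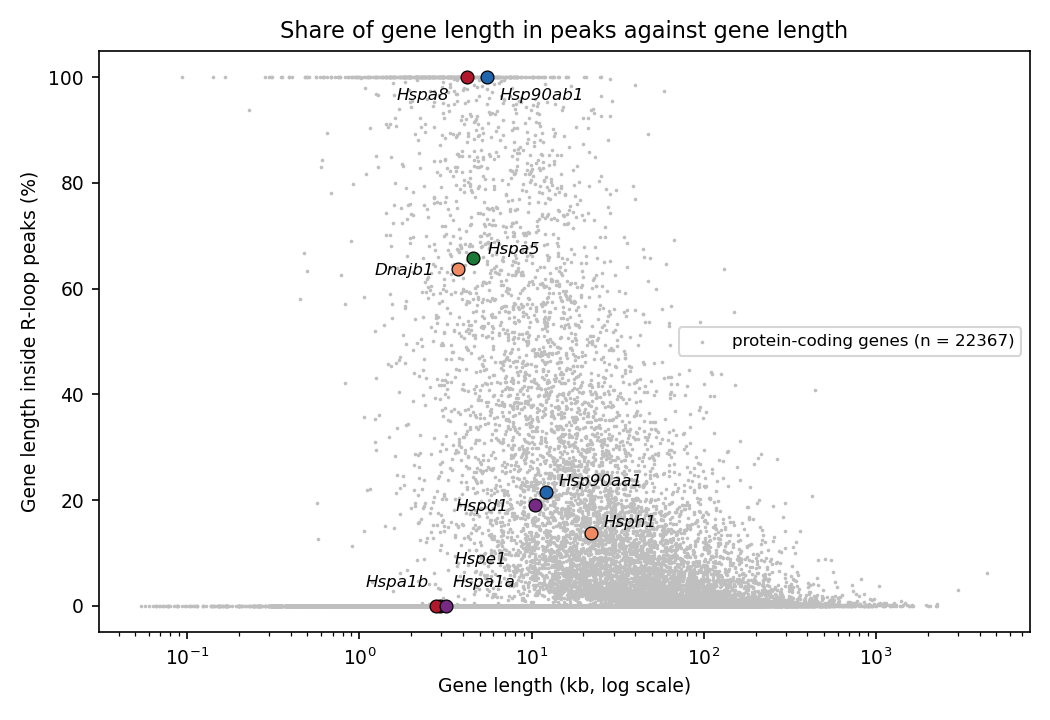
The share of each gene's length inside R-loop peaks, in percent, is plotted against gene length in kb on a log scale. Grey points are 22367 protein-coding genes and coloured points the 10 members, from 0% for Hspa1a, Hspa1b and Hspe1 to 100% for Hspa8 and Hsp90ab1.

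Among the cytosolic HSP70 genes, the constitutive Hspa8 (ENSMUSG00000015656, chr9:40609067-40613283, plus strand, 9 exons) was covered whole. Its peak, at chr9:40607830-40618213, began 1237 bp upstream of the start and ran 4930 bp past the end. Of its length, 6167 bp lay outside the gene. Hspa8 is also a host of small nucleolar RNAs, and Snord14c, Snord14d and Snord14e, which guide modification of ribosomal RNA from within its introns, were inside the peak in full. The single-exon genes Hspa1b (ENSMUSG00000090877, chr17:35093381-35096183) and Hspa1a (ENSMUSG00000091971, chr17:35106144-35109069), both on the minus strand, had 0% of their length in peaks. The nearest peak to Hspa1b, of 3892 bp at chr17:35085690-35089581, lay 3800 bp beyond its end over the gene 1110038B12Rik, and that to Hspa1a was 16563 bp away. Both nonetheless lay in a stretch of chromosome 17 with many peaks, 9 within 100 kb of Hspa1a and 8 within 100 kb of Hspa1b, against a median of 3 over protein-coding genes.

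Hspa1a and Hspa1b are near copies, and reads from sequence present more than once in the genome cannot be assigned to 1 place. Their coding sequences were identical at 1915 of 1923 aligned bases, or 99.6%, against 74.7% between Hspa8 and Hspa1a. Of all words of 50 bases in Hspa1a, 39.0% occurred once in mm9, and in Hspa1b 37.7%. Of the 2877 words of Hspa1a, 1755 were repeated elsewhere in the genome and 1710 of these were found in Hspa1b. The longest stretch of repeated words was 683 bp in Hspa1a and 638 bp in Hspa1b. Hspa8, which has processed copies in the genome, also had repeated exons. Of its words 63.7% occurred once, and none did in exons 3, 5, 7 and 8, which were inside the peak. Its exons alternate with introns that held single-copy words, while Hspa1a and Hspa1b each have 1 exon. With 2 kb on each side, the single-copy share was 70.4% for Hspa1a and 70.2% for Hspa1b. In the 2 kb flanks alone, it was 94.8% downstream and 91.0% upstream of Hspa1a. For Hspa1b it was 96.2% downstream and 88.7% upstream. These flanks held no peak. The study's methods name uniquely mapped reads for its density tracks and do not name the reads given to the peak caller. The part of repeated sequence in the lack of peaks at Hspa1a and Hspa1b was not tested.

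**Figure D3:**
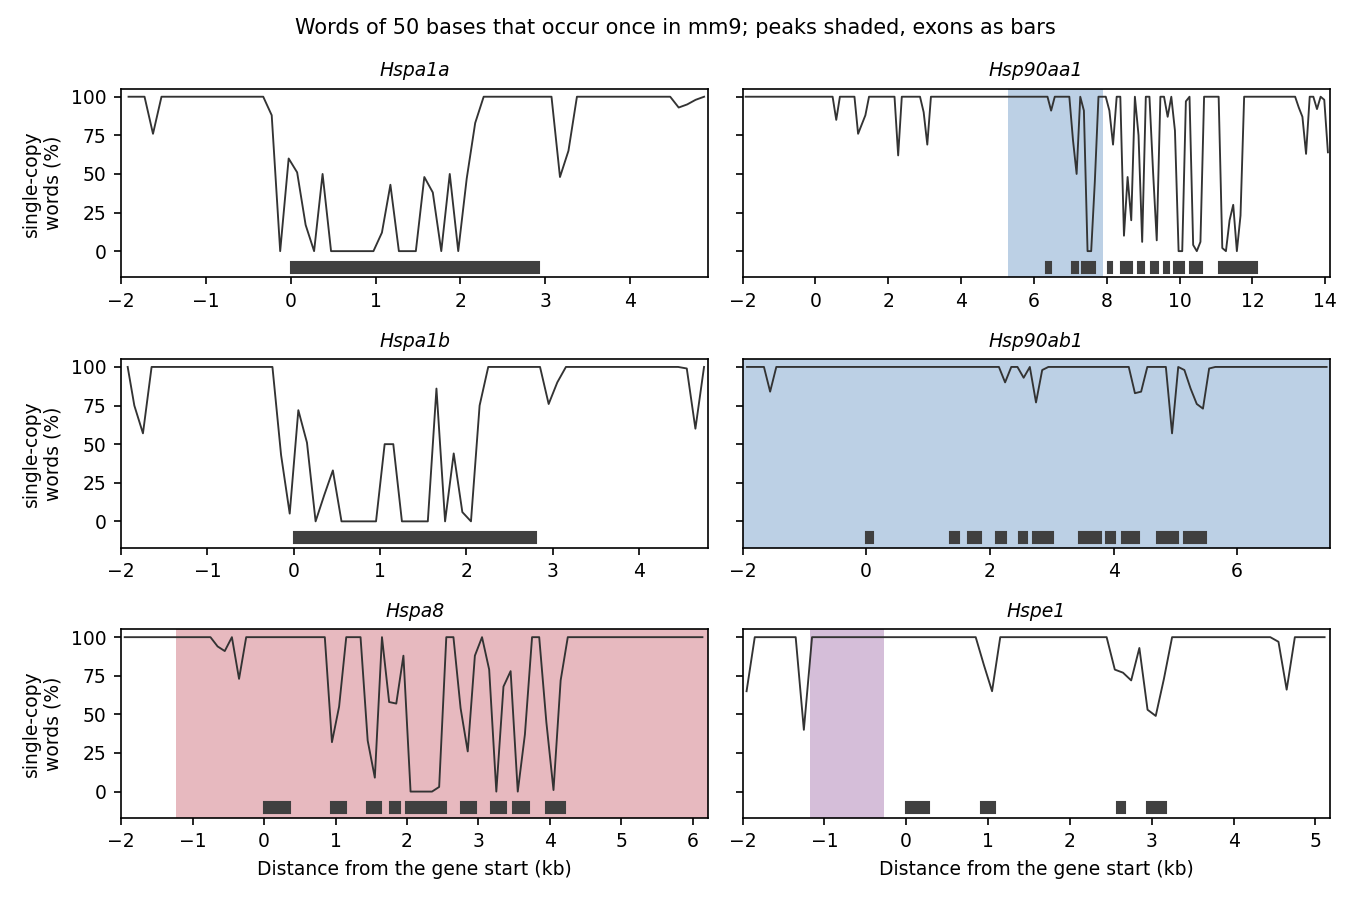
The share of 50-base words that occur once in mm9, in percent, is shown along 6 members from 2 kb before the start to 2 kb past the end; dark bars below are exons and shaded areas are R-loop peaks. The share falls to 0 in the bodies of Hspa1a and Hspa1b, which have no peak, and in exons of Hspa8 inside its peak.

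The partners of HSP70 had peaks away from their starts. At Hsph1 (ENSMUSG00000029657, chr5:150416862-150438951, minus strand), the longest of the 10 genes with 22090 bp, the peak at chr5:150421245-150424300 began 14651 bp after the start and met exons 13 to 16 of 19. It took up 13.8% of the gene, whose sequence was 99.1% single-copy, and it was the only peak in the gene or within 100 kb of it. At Dnajb1 (ENSMUSG00000005483, chr8:86132074-86135801, plus strand), the peak at chr8:86133203-86135580 began 1129 bp after the start, met exons 2 and 3 of 3 and stopped 221 bp short of the end. It covered 63.8% of the 3728 bp gene.

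The 2 HSP90 genes of the cytosol differed in how much of them lay in peaks. The constitutive Hsp90ab1 (ENSMUSG00000023944, chr17:45704724-45710220, minus strand) was covered whole by the peak at chr17:45702695-45712377, which reached 2157 bp upstream of the start and 2029 bp past the end. That peak also took in 1925 bp, 51.9%, of Slc35b2, a gene of a nucleotide sugar transporter that runs towards Hsp90ab1 on the other strand. At the inducible Hsp90aa1 (ENSMUSG00000021270, chr12:111928815-111940938, minus strand), 21.6% of the 12124 bp gene lay in the peak at chr12:111933034-111935647. The annotated gene begins with another transcript, and Hsp90aa1-001, which has the longest coding sequence, starts 6333 bp further in. The peak, from 5291 to 7904 bp after the gene limit, thus held the start of that transcript and its exons 1 to 3 of 11. The coding sequences of the pair were 76.6% identical, and 82.8% of the words of Hsp90aa1 and 96.6% of those of Hsp90ab1 occurred once in mm9. Exons 6, 7, 9 and 10 of Hsp90aa1, outside the peak, had no single-copy word, and its other exons outside the peak had 18.4% to 86.9%. Exons 1, 2 and 3, inside the peak, had 90.5%, 32.7% and 17.6%.

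At the ER chaperone Hspa5 (ENSMUSG00000026864, chr2:34627490-34632051, plus strand), the peak at chr2:34626355-34630487 ran from 1135 bp before the start to 2997 bp after it, and met exons 1 to 7 of 9. It held 65.7% of the gene, 1237 bp of coding sequence and 1531 bp of intron, and stopped 1564 bp before the end. A further peak lay 2375 bp past the gene end over Rabepk. The promoter printed above, with its ER stress element 67 to 49 bp before the coding transcript, was inside the first peak.

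The mitochondrial chaperonin genes stand head to head on chromosome 1, Hspd1 (ENSMUSG00000025980, chr1:55134679-55145087) on the minus and Hspe1 (ENSMUSG00000073676, chr1:55144976-55148151) on the plus strand. Neither start lay in a peak. The nearer of the 2 Hspd1 peaks, at chr1:55143801-55144701, began 386 bp after the Hspd1 limit and spanned part of exon 1 and the first intron. The body of Hspe1 had 0% of its length in peaks. The other Hspd1 peak, at chr1:55135171-55136253, met exons 10 to 12 of 12 and ended 492 bp before the gene end. Together they made up 19.1% of Hspd1, of whose words 88.5% occurred once in mm9. Exons 4, 5 and 6, between the peaks, were 83, 96 and 94 bp long and had no single-copy word. In exons 10, 11 and 12, met by the peak near the gene end, 42.9%, 23.1% and 30.9% of words were single-copy.

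GC skew, (G − C)/(G + C) on the coding strand, describes the excess of G over C and not the share of G. Over the first 1 kb after the start it was highest at Hspa8 (0.129), then Hspd1 (0.117), Hspa5 (0.111), Dnajb1 (0.107), Hsp90aa1 (0.0913) and Hsph1 (0.0836). It was near 0 at Hsp90ab1 (0.00935), Hspa1a (0.00920), Hspa1b (-0.00467) and Hspe1 (-0.0106). Counted from the start of the transcript with the longest coding sequence, Hspd1 (0.140) stood above Hspa8 (0.129), and Hsph1 was at 0.0390. The 3 genes without a peak inside their limits were the 3 lowest from either start, and Hsp90ab1, at almost the same skew as Hspa1a, was covered whole. Hspa1a and Hspa1b, among these 3, are near copies and so not independent. The median of the 10 was 0.0874 against 0.0390 for protein-coding genes, whose quartiles were -0.0293 and 0.101, and 8 of 10 were above 0 against 64.9%. With only genes that had a peak in the gene or within 2 kb, the medians were 0.0994 for the members and 0.0534 for protein-coding genes. The members were also richer in G and C, with a median of 62.4% in that 1 kb against 53.4%. Occurrences of GGG in that 1 kb had the same median, 25, in the members and in all protein-coding genes. Skew is a property of the reference sequence and has no replicate error.

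**Figure D4:**
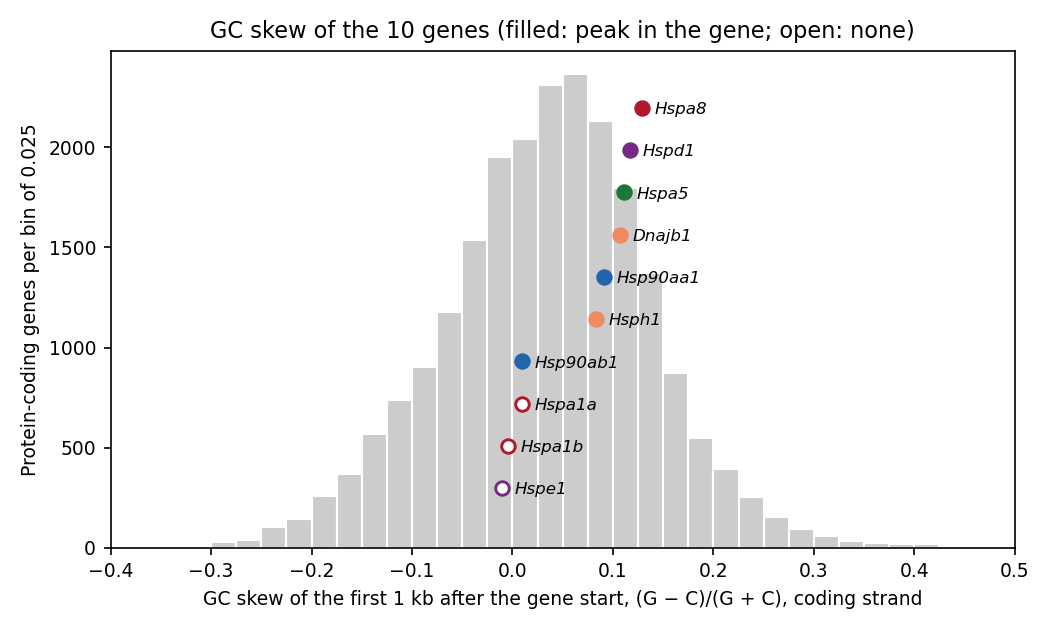
Grey bars count protein-coding genes by the GC skew of the first 1 kb after the gene start; the points give the 10 genes, spread vertically only for legibility. Filled points have a peak inside the gene limits, and the open points, Hspa1a, Hspa1b and Hspe1, have none and lie lowest, between -0.0106 and 0.00920.

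The list gives no strand, so which strand held the RNA at these peaks is not known. On the coding strand of the member they lay in, the skew of the 8 peaks ran from 0.0598 in the Hspa8 peak to 0.180 in the Hspd1 peak near its gene end. The Hsp90ab1 peak also holds part of Slc35b2, which lies on the other strand. The peak near the Hspd1 start had 0.0791, which is -0.0791 on the coding strand of Hspe1, whose only peak it is. The Hspd1 peaks differed in base composition, with 41.0% G and C in the one near the end and 61.7% in the one near the start. The 60 bases in which G most exceeded C on the coding strand, outside untranslated regions, are printed for 6 peaks. They are the extreme of each peak, so their excess of G follows from the choice and does not describe the whole peak. No such stretches from other peaks or from sequence outside peaks are given for comparison. Capitals mark runs of at least 3 G.
Hspa8, chr9:40608590-40608649, plus strand: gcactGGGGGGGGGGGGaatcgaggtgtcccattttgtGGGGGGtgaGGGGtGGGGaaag
Hspa5, chr2:34627985-34628044, plus strand: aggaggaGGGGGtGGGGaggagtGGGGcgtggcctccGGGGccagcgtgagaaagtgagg
Dnajb1, chr8:86134326-86134385, plus strand: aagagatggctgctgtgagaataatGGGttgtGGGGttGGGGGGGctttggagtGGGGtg
Hsp90aa1, chr12:111934211-111934270, minus strand: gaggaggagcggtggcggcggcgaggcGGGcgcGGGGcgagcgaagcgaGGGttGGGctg
Hsph1, chr5:150422922-150422981, minus strand: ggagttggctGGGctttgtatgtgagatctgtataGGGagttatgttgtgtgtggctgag
Hsp90ab1, chr17:45707423-45707482, minus strand: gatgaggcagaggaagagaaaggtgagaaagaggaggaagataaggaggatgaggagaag
The Hspa8 stretch, at position -477 bp from the start, had 34 G, 6 C and a run of 12 G. The Hspa5 stretch, with 35 G and 8 C, began 495 bp after the start in an intron, and those of Dnajb1 (31 G, 3 C), Hsp90aa1 (37 G, 11 C) and Hsph1 (25 G, 4 C) were also intronic. The Hsp90ab1 stretch lay in coding exon 6 and had 28 G and 1 C with no run of 3 G. Of the Hspd1 stretches, not printed, that of the peak near the gene end lay in exon 10 and had 19 G and 4 C, also with no such run, and that near the start was intronic with 26 G and 7 C.

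DRIP-seq cuts the genome with EcoRI, HindIII, BsrGI, SspI and XbaI before the antibody step and recovers whole fragments. Of the 16 edges of these peaks, 6 lay within 100 bp of a site of these enzymes, against 28.3% of all edges in the list. Both edges of the Hsp90aa1 peak, 1 and 10 bp from BsrGI sites, and both of the Hspa8 peak, 26 bp from BsrGI and 30 bp from XbaI, were among them. The others were an edge of Hspd1, 27 bp from XbaI, and one of Hsph1, 90 bp from SspI. The edges of the Hsp90ab1 peak were the farthest from sites, 419 and 760 bp. Up to 9 sites lay inside a peak (Hsp90ab1), and none inside either Hspd1 peak. How far the fragments set the limits of these peaks was not tested.

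Further chaperone genes were counted in 7 lists, which are described by their counts alone. Peaks were found at 61 of 81 genes, or 75.3%, with a start in a peak at 26 and an end at 24; their median length was 17632 bp. Over all protein-coding genes the shares were 43.1% with a peak, 14.9% with a start in one and 10.9% with an end in one. J-domain proteins had the highest share, 16 of 17, with only Dnajb14 lacking a peak. They also had the longest median length of the 7 lists, 27985 bp, against 15427 bp over all protein-coding genes. Dnajb9, an ER partner of Hspa5, was covered in full, Dnajb2 to 63.9% and Dnaja4 to 47.7%. Of the ER chaperones, 12 of 13 had a peak and Pdia6 had none. Hyou1, the HSP110 of the ER, was covered in full, the calcium-binding lectin Calr to 83.2% and Xbp1, a transcription factor of the unfolded protein response, to 61.2%. The HSP90 system had peaks at 10 of 11 genes, all but Fkbp4. Its most covered genes were the kinase cochaperone Cdc37 (85.4%), Hsp90b1, the HSP90 of the ER (43.8%), and Unc45a (32.4%).

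Other lists had lower shares. In the HSP70 system, 9 of 14 genes had a peak, with Hspa9 (38.5%), Bag3 (23.4%) and Hspa14 (14.7%) most covered. Hspa1l, Hspa4l, Hspa12b, Hspa13 and Stub1 had none. Hspa1l is the neighbour of Hspa1a and Hspa1b on chromosome 17, so all 3 HSP70 genes of that cluster were without a peak. Of the cytosolic chaperonin TRiC and prefoldin, 9 of 13 genes had one. Cct5 (82.7%), Cct2 (63.0%) and Cct8 (25.1%) led, and Cct4, Cct6a, Pfdn5 and Vbp1 had none. The small heat shock proteins had peaks at 3 of 9 genes, Hspb6 (100%), Hspb8 (5.47%) and Hspb11 (2.37%), and their median length, 3790 bp, was the shortest of these lists. Hspb8 (14.4 kb) and Hspb11 (26.3 kb) are longer than 5 kb. Hspb6 (3.27 kb) was thus the only small heat shock gene under 5 kb with a peak. Over all genes under 5 kb the share with a peak was 19.6%. Of the heat shock factors, Hsf1 (4.42%) and Hsf4 (1.94%) had a peak while Hsf2 and Hsf5 had none, and no start of a heat shock factor gene lay in a peak.

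**Figure D5:**
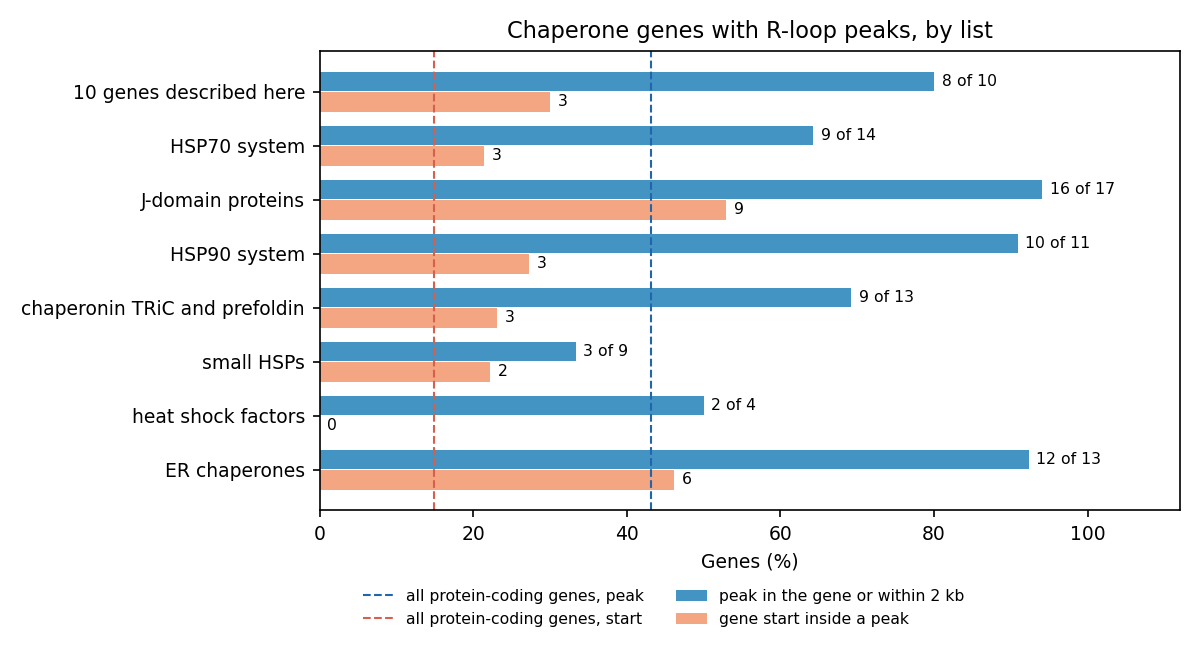
Bars give the percent of genes with a peak in the gene or within 2 kb (blue) and with the gene start inside a peak (orange) for the 10 genes described and 7 further chaperone lists, with counts beside them. Dashed lines mark all protein-coding genes, at 43.1% and 14.9%. The J-domain, ER and HSP90 lists reach 94.1%, 92.3% and 90.9%, and the small HSPs 33.3%.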

How the data were processed

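DRIP-seq DNA from NSPCs was sequenced by the authors, trimmed (Trim Galore 0.6.6, per the submitters' processing notes), aligned to NCBI37/mm9, freed of duplicates and called into peaks with a Hidden Markov Model. The authors deposited 1 list of peak positions in base pairs, without signal. Each DRIP library pooled 3 reactions per the labels; the rule by which replicates became 1 list and the depth are not given in the sources used here. Density tracks were made from uniquely mapped reads; the reads used for peak calling are not named. The input library was not analysed here.

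Peaks were set against GENCODE M1 genes on chromosomes 1 to 19, X and Y and against mm9. Gene starts are the annotated gene limits unless stated. Single-copy shares came from exact words of 50 bases on both strands, a step tested on simulated data. RefSeq promoters (GRCm38.p6) matched mm9 exactly for the 7 members they list; Hspa8, Hsp90aa1 and Hsp90ab1 are not among them. The members and lists were chosen with earlier results of these data known, and the ER stress element was added after the sequences were seen. All 10 members are named, with, of each further list, up to 3 genes most covered and the genes without a peak where 5 or fewer; Pfdn6 was not found under that symbol. Alternatives covered a minimum width of 1 kb, merged peaks, flanks, overlaps, gene models, starts, windows and word lengths. Python 3.11.15, numpy 2.4.6, numba 0.67.0, Biopython 1.88 and matplotlib 3.10.9 were used.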

Additional observations from a re-analysis of the deposited data

How the results depend on the processing

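The number of members with a peak was 7 to 9 under every alternative tried. It was 7 with peaks of at least 1 kb and with no flank, and 9 with a flank of 5 kb, which added Hspa1b. Among the 22367 protein-coding genes, 7746 had a peak at the minimum width, 8858 without a flank and 10451 with the 5 kb flank. The main rule gave 9636. Members with the start in a peak numbered 3 with the other peak settings and with the limits of the longest protein-coding transcript, and 4 with the start of any transcript or of the transcript with the longest coding sequence, and those with the end in a peak numbered 2 under the 3 alternatives tried. With the flank of 5 kb, 13 distinct peaks were counted in place of 8. The median share of member length in peaks was 17.7% with peaks of at least 1 kb and 25.9% over the longest protein-coding transcript, against 20.3%. Edges within 200 bp of a restriction site numbered 10 and within 50 bp 5, against 6. With words of 36 bases, 35.1% of Hspa1a and 33.2% of Hspa1b were single-copy, and with words of 100 bases 50.7% and 50.1%. Members with positive GC skew numbered 7 over 500 bp and 10 over 2 kb, against 8. For these other distances and skew windows, no share over all edges or all protein-coding genes is given. No paired analysis was possible because the result comes from 1 list and no test. The absence of a peak is not the absence of R-loops, since the list gives neither depth nor signal.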
